A study of Mus musculus with 24 samples.

Results

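Hepatic expression of the glyoxalase gene Glo1 was examined together with 5 further genes out of 25746 listed in the count tables. Btbd9 and Dnah8 were included as the genes on either side of Glo1 on chromosome 17. Hagh, Glod4 and Park7 were included as genes related to methylglyoxal removal by function or by protein fold. Glo1 was chosen by its expression in these libraries, whose values were already known, so its levels are given as a description without a test. The neighbours were taken by position and Hagh, Glod4 and Park7 by function or protein fold, with earlier results of these data known. Liver RNA was sequenced from mice of 12 weeks of age, with 6 mice in each of the groups mWT, mKO, fWT and fKO. The C57BL/6N background (C57/BL6N in the labels) was shared by all groups, and the KO mice were homozygous for a CRISPR/Cas9 deletion of the major urinary protein (Mup) gene cluster on chromosome 4. The KO line descended from a single male founder, and WT and KO mice came from heterozygous matings. No other allele or agent is named for any group, and all mice received a standard diet and were fasted and anaesthetised before sampling.

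Methylglyoxal is a reactive by-product of the triose phosphates of glycolysis and fructose breakdown, which modifies proteins and DNA. The glyoxalase system removes it with glutathione: GLO1 isomerises the adduct of methylglyoxal and glutathione to lactoylglutathione, and the HAGH enzyme (glyoxalase 2) hydrolyses this product to D-lactate and sets glutathione free. PARK7 (DJ-1) has been described as a protein of glycation repair and of oxidative stress defence, GLOD4 contains a domain of the glyoxalase fold, BTBD9 is a BTB domain protein, and DNAH8 is a dynein heavy chain of motile cilia and sperm tails. In some inbred mouse strains the segment holding Glo1 is duplicated. Gene copy number was not measured here.

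Expression is given in CPM, the count of a gene relative to the total of its library. The total count per library ranged from 15361901 to 26261394. The 22 Mup genes together reached 17028 to 37393 CPM in mWT and 3395 to 5259 CPM in fWT mice, and at most 0.457 CPM in any KO mouse, in accord with the labels. The hepatocyte markers Alb, Apoa1, Ttr and Cps1 summed to 85357 to 140808 CPM over all libraries, and the adipocyte markers Adipoq and Plin1 to at most 0.157 CPM. CPM values were scaled by the trimmed mean of M values (TMM) method. In these samples of whole liver, fewer cells of a type and less RNA per cell cannot be told apart. Of the 6 genes, 5 passed the filter of at least 0.66 CPM in at least 6 libraries, which left 12330 genes tested. Dnah8 did not pass.

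Glo1 (ENSMUSG00000024026) lies on the minus strand of chromosome 17 between positions 30584936 and 30626871 (GENCODE M21 annotation of GRCm38). Btbd9 (ENSMUSG00000062202, 30215524 to 30576488, minus strand) ends 8447 bp before it. Dnah8 (ENSMUSG00000033826, 30624354 to 30877365, plus strand) overlaps the annotated body of Glo1 by 2518 bp, although their exons share 0 bp. Hagh (ENSMUSG00000024158, 24840143 to 24864450, plus strand) lies at lower coordinates of chromosome 17, Glod4 (ENSMUSG00000017286, 76120987 to 76243725, minus strand) on chromosome 11 and Park7 (ENSMUSG00000028964, 150897133 to 150914437, minus strand) on chromosome 4, 88.7 Mb beyond the last Mup gene.

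The start region of Glo1, the gene with the clear difference between groups, is shown beside those of Hagh and Park7. Hagh encodes the enzyme of the following step. Park7 alone of the members besides Glo1 had an unadjusted p under 0.01 in males (edgeR). The sequences are those of RefSeq on GRCm38.p6, run 5′ to 3′ on the strand of the gene over 300 bases and include the transcript start. Capitals mark matches, on either strand, to the core of the antioxidant response element TGACNNNGC, to the CCAAT box CCAAT and to the GC box GGGCGG, of which neighbouring matches may share bases.
Glo1, chr17:30612610-30612909, minus strand: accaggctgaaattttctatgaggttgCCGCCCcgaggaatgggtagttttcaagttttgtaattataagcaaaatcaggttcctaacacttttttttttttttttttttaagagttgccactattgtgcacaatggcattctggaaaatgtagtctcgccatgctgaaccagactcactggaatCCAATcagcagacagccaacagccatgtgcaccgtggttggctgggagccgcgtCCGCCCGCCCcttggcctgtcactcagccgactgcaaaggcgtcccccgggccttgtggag
Hagh, the downstream one of 2 start regions, chr17:24850417-24850716, plus strand: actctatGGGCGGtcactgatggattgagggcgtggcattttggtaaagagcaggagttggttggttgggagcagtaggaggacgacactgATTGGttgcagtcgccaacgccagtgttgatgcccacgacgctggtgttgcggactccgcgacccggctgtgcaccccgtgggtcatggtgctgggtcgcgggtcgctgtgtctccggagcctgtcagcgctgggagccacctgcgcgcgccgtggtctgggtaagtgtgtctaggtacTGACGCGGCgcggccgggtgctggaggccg
Park7, chr4:150909872-150910171, minus strand: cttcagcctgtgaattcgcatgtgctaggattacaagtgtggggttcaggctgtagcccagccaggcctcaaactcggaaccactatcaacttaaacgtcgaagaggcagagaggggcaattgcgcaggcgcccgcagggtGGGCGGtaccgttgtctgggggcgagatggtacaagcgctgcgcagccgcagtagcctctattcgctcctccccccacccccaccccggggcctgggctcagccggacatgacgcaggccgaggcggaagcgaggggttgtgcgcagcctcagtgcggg
The Glo1 window held 1 CCAAT box, 65 bases before the start, 3 GC boxes and 0 matches to the antioxidant response element core. The downstream Hagh window held 1 match to that core, 20 bases after the start, while its upstream window, which lies on chromosome 17 from 24850240 to 24850539, and those of Park7, Glod4 and Dnah8 held 0. Of 32851 RefSeq start regions of the same length, 12.392% held the antioxidant response element core, 37.408% a CCAAT box and 35.658% a GC box. These matches are letters in a window and were not measured as binding sites.

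Glo1 expression was higher in mKO than in mWT mice, whereas female KO and WT mice had overlapping values. In mWT mice, Glo1 was measured at 275, 289, 263, 218, 209 and 265 CPM. In mKO mice it was measured at 412, 320, 351, 364, 425 and 369 CPM. Every mKO mouse was above every mWT mouse, and the lowest mKO value of 320 CPM was above the highest value of 289 CPM among the 18 other mice. In fWT mice, values were 214, 212, 255, 225, 213 and 196 CPM. In fKO mice, they were 213, 268, 264, 214, 208 and 225 CPM. The female groups covered nearly the same range, and 2 of 6 fKO mice were above all fWT mice.

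The order of the group means was mKO (373 ± 39.0 CPM; SD, n = 6), mWT (253 ± 32.1 CPM), fKO (232 ± 27.2 CPM) and fWT (219 ± 19.99 CPM). Of the neighbours in this order, only mKO and mWT were apart, whereas mWT and fKO differed by 21.3 CPM and fKO and fWT by 12.7 CPM, both less than the larger SD of each pair. The log2 fold change of Glo1 between mKO and mWT mice was 0.56 (standard error 0.0915), corresponding to 1.47-fold. Between fKO and fWT mice it was 0.08 (standard error 0.0912), and the male effect exceeded the female effect by 0.48 (standard error 0.129) on the log2 scale. Between fWT and mWT mice, the log2 fold change was -0.21 (standard error 0.0913), with overlapping groups. Of all genes tested, 0.584% were higher in every mKO than in every mWT mouse, which is given as background, since Glo1 was selected with this contrast known. The alternatives of processing moved the male log2 fold change of Glo1 between 0.56 and 0.57, and leaving out any mouse between 0.51 and 0.60.

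**Figure D1:**
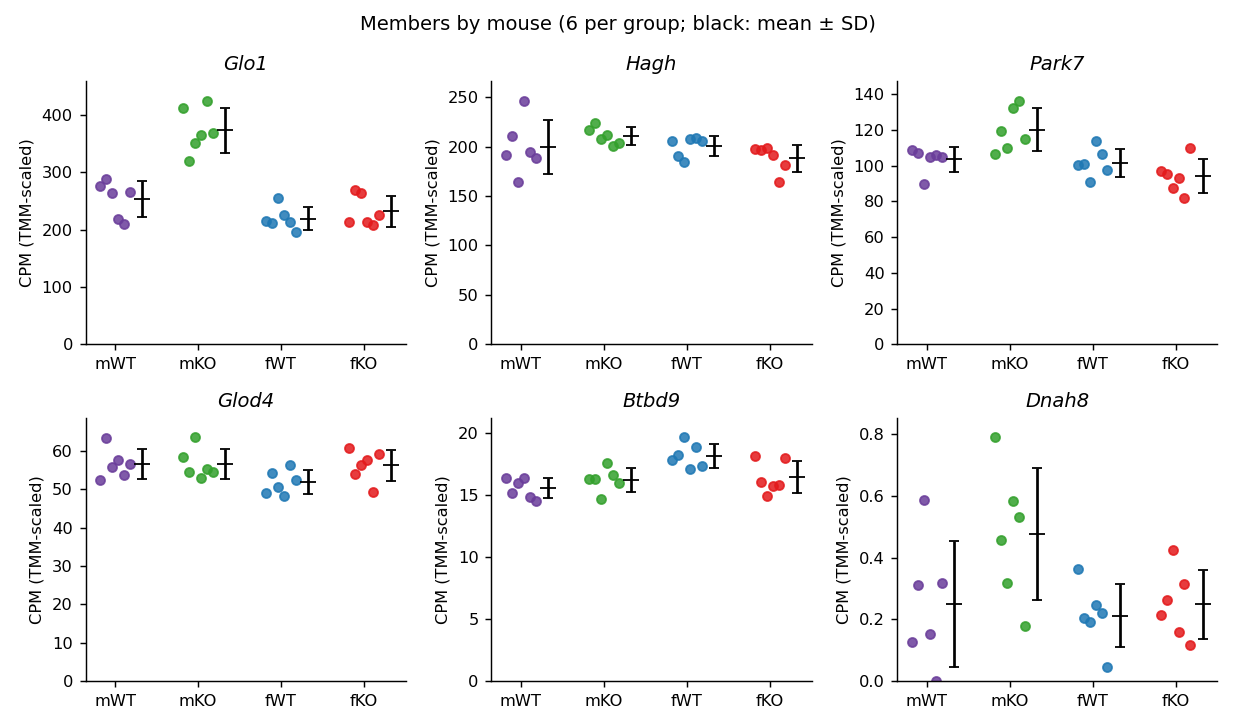
TMM-scaled CPM (y axes, each starting at 0) of the 6 genes in each of 6 mice per group (coloured points, in order of mouse number), with the mean and SD in black. The 6 mKO points of Glo1, from 320 to 425 CPM, lie above all other mice, while the groups of Hagh, Park7, Glod4 and Dnah8 overlap and Btbd9 is higher in fWT than in mWT mice.

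Reads of Glo1 could in part be shared with other transcripts. The processed pseudogene Gm13443 matches a Glo1 transcript over 575 bases at 96.0% identity and had no entry of its own in the count tables, and 6 listed genes match over 201 to 209 bases at 90% identity or more. Since the counting of reads with several matches is not given in the sources used here, the share of such reads in the Glo1 count is unknown.

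The gene of the next step, Hagh, was not called in either sex. Hagh ranged from 164 to 247 CPM in mWT (median 193), from 200.3 to 224 CPM in mKO (median 209.7), from 184 to 209 CPM in fWT (median 205) and from 164 to 199 CPM in fKO mice (median 194). All 4 groups overlapped, and the widest range was that of mWT mice. The log2 fold change was 0.08 in males (95% interval -0.07 to 0.23, adjusted p = 0.780, edgeR quasi-likelihood fit, Benjamini-Hochberg over all genes tested) and -0.09 in females (95% interval -0.24 to 0.06, adjusted p = 0.938). Hagh has no transcript with a long similar stretch elsewhere, by a search for at least 200 bases at 90% identity.

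Park7 was numerically higher in mKO than in mWT mice without passing the adjusted threshold. In mWT mice it was measured at 109, 107, 89.8, 105, 106 and 105 CPM. In mKO mice, the values were 107, 120, 110, 132, 137 and 115 CPM. The groups overlapped, with 5 of 6 mKO mice above all mWT mice. The log2 fold change in males was 0.21 (standard error 0.0750, unadjusted p = 0.00847, adjusted p = 0.270 from edgeR). At the unadjusted threshold of 0.01, the study's own cut-off, 3.52% of all genes tested were counted in males, and 1.80% of all genes as higher. Female values ranged from 90.7 to 114 CPM in fWT and from 81.7 to 110 CPM in fKO mice, with a log2 fold change of -0.11 (adjusted p = 0.929). The difference between the male and female effects of Park7 was 0.32 (standard error 0.106, unadjusted p = 0.00508, adjusted p = 0.816), with 1.16% of all genes tested under an unadjusted p of 0.01 for this difference and 0.00811%, which is 1 gene, under an adjusted p of 0.05.

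Glod4 had nearly equal levels in mWT (56.6 ± 3.81 CPM; SD, n = 6) and mKO mice (56.6 ± 3.91 CPM), with ranges of 52.4 to 63.3 and 52.9 to 63.6 CPM. The male log2 fold change was -0.0013 (95% interval -0.13 to 0.13, adjusted p = 0.997 from edgeR). Female mice had 51.9 ± 3.16 CPM in fWT and 56.3 ± 4.13 CPM in fKO, a log2 fold change of 0.12 (95% interval -0.01 to 0.25, adjusted p = 0.929). The sign of the male value is not determined by these data. Exons of Glod4 overlap those of Gemin4 by 3353 bp and of Vps53 by 150 bp on the same strand. They overlap those of Fam57a by 2875 bp on the opposite strand. The counts of these genes depend on the strand setting and on how shared reads were assigned.

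The neighbour Btbd9 was not called for the KO effect in either sex. Btbd9 was measured at 16.4, 15.2, 15.9, 16.4, 14.8 and 14.5 CPM in mWT mice. The corresponding values were 16.3, 16.3, 14.7, 17.6, 16.6 and 15.9 CPM in mKO mice. Male groups overlapped, and the log2 fold change was 0.06 (95% interval -0.07 to 0.19, adjusted p = 0.818 from edgeR). In fWT mice, the values were 17.8, 18.2, 19.7, 17.1, 18.9 and 17.3 CPM. In fKO mice, they were 18.1, 16.1, 14.9, 15.7, 15.8 and 17.999 CPM. The fKO values extended below those of fWT, at a log2 difference of -0.14 (standard error 0.0636, unadjusted p = 0.0329, adjusted p = 0.929). Leaving aside Glo1, 0 of the 4 other members tested were called in males or females by edgeR at an adjusted p under 0.05, as were 0 by DESeq2, and 1 in each sex had an unadjusted p under 0.05. In the whole table, edgeR called 0.211% of genes in males and 0.0892% in females, and 10.6% and 4.87% had an unadjusted p under 0.05. With the deleted Mup genes removed before the fit, edgeR called 2 genes in males instead of 26. In females it then called 0 instead of 11.

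Dnah8, on the other side of Glo1, was weakly expressed. Its raw counts were 2, 5, 10, 3, 0 and 5 in mWT and 19, 10, 6, 11, 8 and 3 in mKO mice. Females had 8, 4, 4, 6, 4 and 1 in fWT and 4, 7, 8, 3, 8 and 2 counts in fKO mice. In CPM, Dnah8 ranged from 0 to 0.586 in mWT, 0.178 to 0.790 in mKO, 0.0445 to 0.364 in fWT and 0.117 to 0.426 in fKO mice, so that all groups overlapped. With 141 counts over 24 libraries, it did not pass the expression filter and was not tested. The mWT mouse with 0 counts allows a level of up to 0.183 CPM, a floor of 3 counts that covers counting error only.

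Beyond the adjacent pair, the genes around Glo1 were compared by position alone. Within 1 Mb on either side of the Glo1 gene, 73 genes are annotated, 33 are listed in the count tables and 16 were tested. Of the 15 besides Glo1, edgeR called 0 in males and 0 in females, as did DESeq2. There were 2 male and 1 female unadjusted p-values under 0.05, beside 10.6% and 4.87% of all genes tested. The 15 are not all separate, since Gm28043 overlaps Rnf8 and Cmtr1 on the same strand. Gm28043 and Cmtr1 had mean levels of 51.7 and 51.1 CPM. The median log2 fold change of the 15 was 0.04 in males and -0.02 in females, beside -0.0021 and -0.0026 over all genes tested. With a mouse left out, the male median lay between 0.011 (without mKO mouse 1) and 0.063 (without mKO mouse 3), and the female median turned positive without fKO mouse 4 (0.024) or fWT mouse 4 (0.0022). Zfand3, the tested gene that lies before Btbd9 and encodes a zinc finger protein, was at 0.01 in males and at -0.03 in females on the log2 scale.

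The extremes of this window in males were Cbs and Tff3. Cbs, which encodes cystathionine beta-synthase and provides cysteine precursors, ranged from 211 to 374 CPM in mWT (median 253) and from 289 to 456 CPM in mKO mice (median 398). These groups overlapped, and the log2 fold change of 0.45 (standard error 0.175) had an adjusted p of 0.340 in edgeR. In females, the log2 fold change of Cbs was 0.06 (adjusted p = 0.985). Tff3, a secreted trefoil factor, had 0.187 to 8.87 CPM in mWT and 0.105 to 3.21 CPM in mKO mice, an overlap with an adjusted p of 0.354. In females it had at most 1 count per fWT library and at most 2 per fKO library. In the flanks from 1 to 5 Mb on either side, 179 genes were tested, of which edgeR called 0 in males and 0 in females, while DESeq2 called 1 in males and 0 in females. There, 21 genes had an unadjusted p under 0.05 in males and 7 in females, beside 10.6% and 4.87% of all genes tested.

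**Figure D2:**
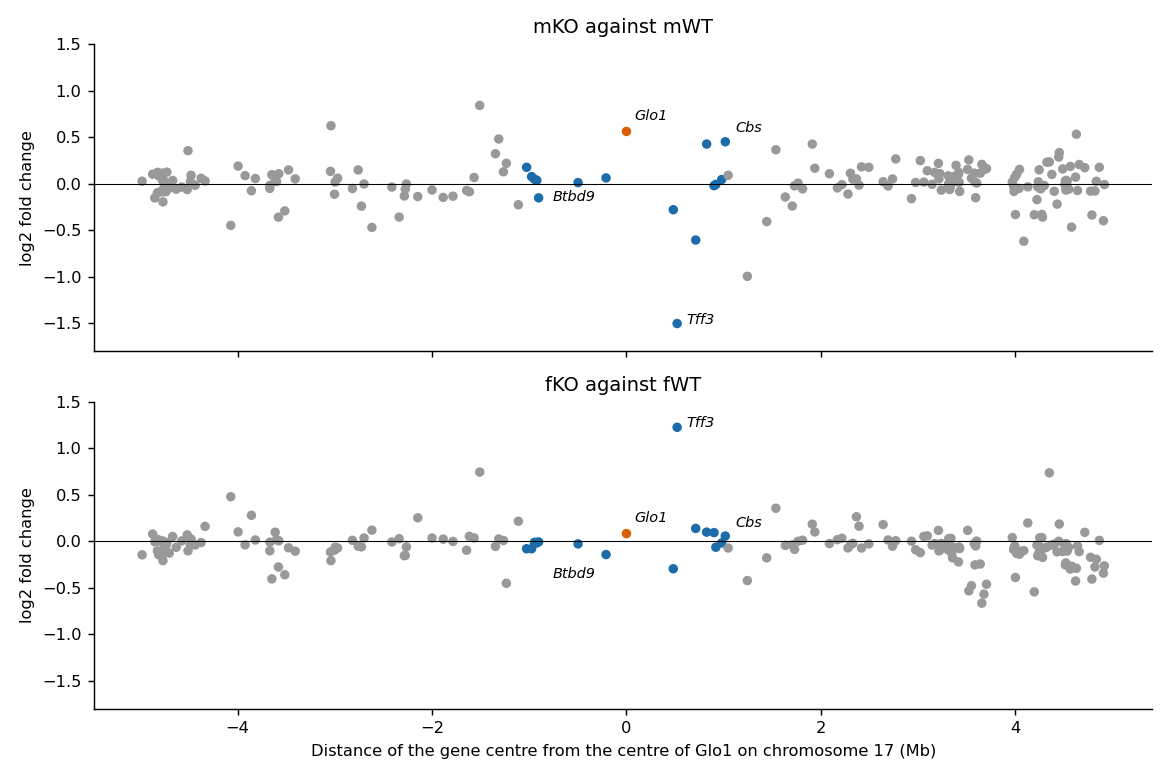
Log2 fold change (y axes) of each tested gene within 5 Mb of Glo1 on chromosome 17 by distance of its centre from the centre of Glo1 in Mb (x axis), in males (top) and females (bottom). Glo1 (orange) is at 0.56 in males and 0.08 in females, the 15 genes within 1 Mb (blue) have medians of 0.04 and -0.02, and genes further away are grey.

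Genes of methylglyoxal metabolism, and genes that share the fold of either glyoxalase, were then described by list. The lists of the glyoxalase 1 and glyoxalase 2 folds were drawn up by protein fold and include enzymes of other pathways. Counts over all lists are therefore not counts of methylglyoxal genes alone. The 6 lists hold 35 genes other than Glo1, of which 32 were tested. Glod5, Hpdl and Ager had at most 6 counts in any library and were not tested. In males, 25 of the 32 had a positive and 7 a negative log2 fold change, with a median of 0.09 beside -0.0021 over all genes tested. EdgeR and DESeq2 each called 0 of them, 8 had an unadjusted p under 0.05, beside 10.6% of all genes tested, and 5 one under 0.01, beside 3.52%. These 5 all had positive log2 fold changes, and 1.80% of all genes tested were under that threshold and higher in mKO mice. They include Gclc, which the paper had already reported as higher in mKO mice from these libraries, so the count is a description. In females, 15 were positive and 17 negative, with a median of -0.0028. EdgeR and DESeq2 called 0 there too, 2 had an unadjusted p under 0.05 and 0 one under 0.01, beside 4.87% and 0.876% of all genes tested.

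Among the genes of the glyoxalase 1 fold, Glod4, Mcee and Hpd were tested. Mcee, the methylmalonyl-CoA epimerase, had the highest male log2 fold change of the 3 at 0.11 (adjusted p = 0.709 in edgeR), and the median was 0.04 in males and 0.09 in females. With a mouse left out, the male median lay between 0.010 (without mWT mouse 3) and 0.081 (without mWT mouse 5) and the female median between 0.047 (without fKO mouse 4) and 0.15 (without fKO mouse 5). Hpd, an enzyme of tyrosine breakdown, had the lowest female value at -0.11 (adjusted p = 0.946).

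The glyoxalase 2 fold, a form of the metallo-beta-lactamase fold, had 6 tested genes with positive log2 fold changes in males and a median of 0.10 (0.056 without mKO mouse 4 to 0.15 without mKO mouse 3), and 5 positive of 6 with a median of 0.13 in females, or -0.022 without fKO mouse 2. Pnkd had 36.6 to 56.6 CPM in mWT (median 45.6) and 56.1 to 100.5 CPM in mKO mice (median 77.1). The male groups of Pnkd overlapped slightly, and the log2 difference was 0.75 (standard error 0.267, unadjusted p = 0.00997, adjusted p = 0.283 in edgeR). Ethe1, the persulfide dioxygenase of sulfide oxidation, had a similar male log2 fold change of 0.65 with an adjusted p of 0.333. Lactb2, a ribonuclease of the same fold, had the lowest male value at 0.04 and Mblac2 the highest female value at 0.26 (adjusted p = 0.929), while Hagh was lowest in females.

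For glutathione supply, 2 of 4 genes had an unadjusted p under 0.01 in males, beside 3.52% of all genes tested. The list was drawn up with these data known, and the paper had already named Gclc among the genes most increased in mKO mice. Gclc, the catalytic subunit of the enzyme that makes gamma-glutamylcysteine, had 169 to 305 CPM in mWT (median 212) and 258 to 408 CPM in mKO mice (median 309.8). These groups overlapped, and the log2 fold change was 0.51 (standard error 0.165, unadjusted p = 0.00496, adjusted p = 0.217 in edgeR). Gsr, the glutathione reductase, had 45.8 to 62.8 CPM in mWT (median 56.5) and 61.7 to 69.2 CPM in mKO mice (median 66.9). The overlap of Gsr was small, at a log2 difference of 0.25 (standard error 0.0845, unadjusted p = 0.00696, adjusted p = 0.247). Gclm, the modifier subunit that pairs with Gclc, was at 0.04 in males (adjusted p = 0.930) and Gss, the glutathione synthetase, was lowest at -0.01 (adjusted p = 0.984). In females, the same list had a median of 0.12, or 0.044 without fKO mouse 2, with Gclc highest at 0.19 (adjusted p = 0.944) and Gss lowest at -0.0021.

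The other routes of methylglyoxal removal and D-lactate use comprised 9 tested genes, with a male median of 0.12 and a female median of 0.01, whose sign was not determined (-0.039 to 0.039 with a mouse left out). Aldh1a1, a retinaldehyde dehydrogenase, had 1119 to 1967 CPM in mWT (median 1352) and 1534 to 2156 CPM in mKO mice (median 1901), at a log2 difference of 0.39 (standard error 0.138, unadjusted p = 0.00971, adjusted p = 0.283 in edgeR). Its male groups overlapped. Akr1b3, the aldose reductase, had the lowest male value at -0.35 (adjusted p = 0.337), and the weakly expressed Akr1b7 the highest at 0.59 (adjusted p = 0.697). Ldhd, which oxidises D-lactate, the end product of the pathway, was at -0.0022 in males and 0.03 in females, with adjusted p-values of 0.996 and 0.981.

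Genes of triose phosphate handling, upstream of methylglyoxal formation, had a median of 0.09 in males (0.039 without mKO mouse 4 to 0.15 without mKO mouse 1) and -0.07 in females. Gpd1, the glycerol-3-phosphate dehydrogenase, was highest in males at 0.32 (adjusted p = 0.408 in edgeR) and Tkfc, which phosphorylates glyceraldehyde, lowest in both sexes at -0.20 and -0.17. Among the genes of glycation repair and of receptors for glycated proteins, Park7 was highest in males and Fn3k, a kinase of fructosamines, lowest at -0.10 (adjusted p = 0.745). All 4 tested genes of this list were negative in females, from -0.13 to -0.05.

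**Figure D3:**
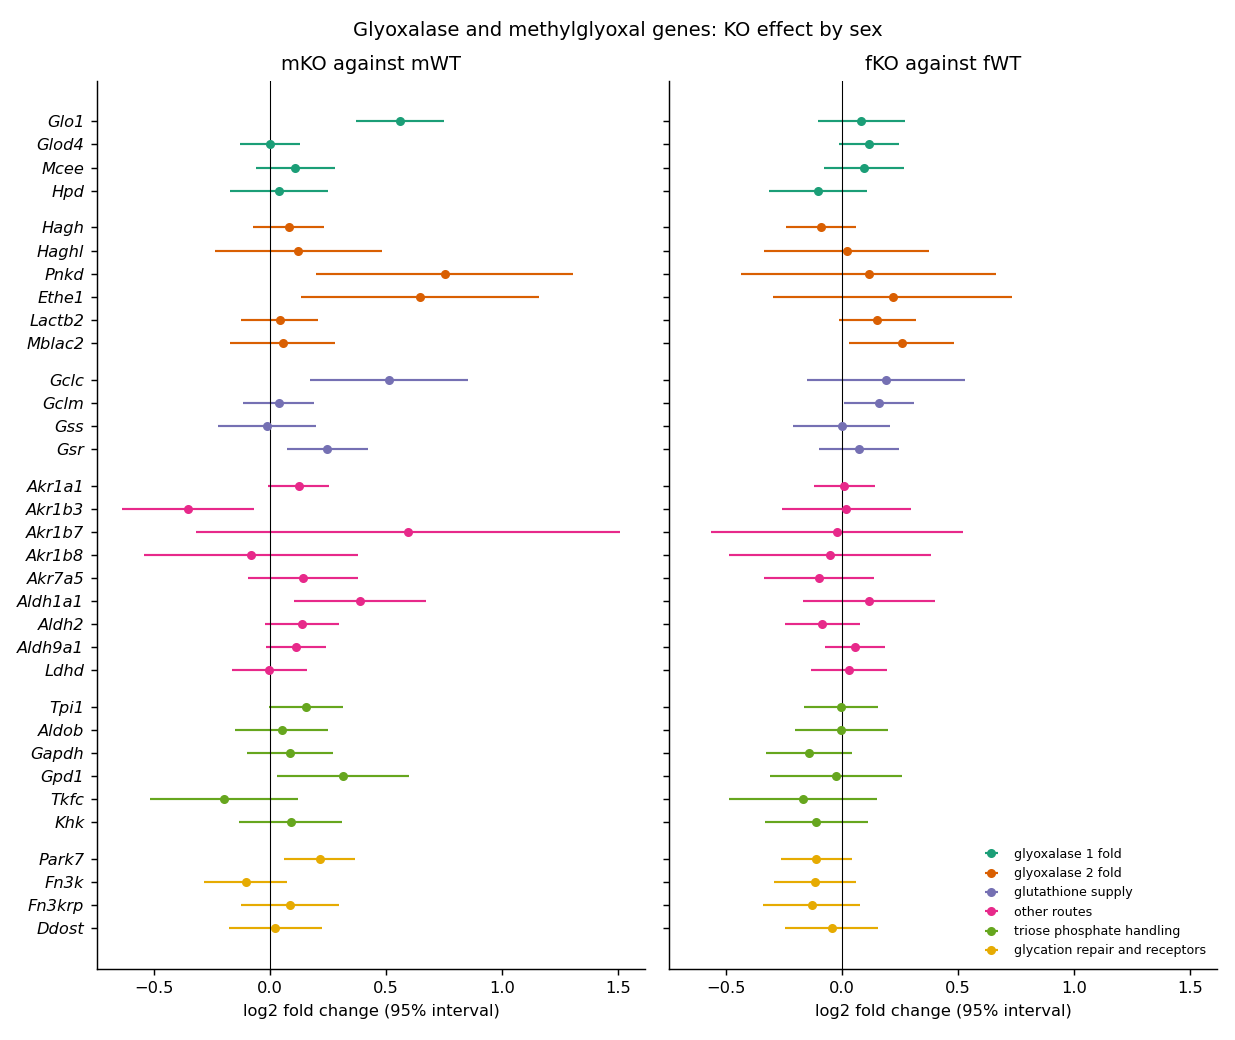
Log2 fold changes with 95% intervals (x axes) of Glo1 and the 32 other tested genes, coloured by list, in males (left) and females (right). The interval of Glo1 is a description only, since Glo1 was chosen by its values. In males 25 of the 32 points lie above 0 and in females 15, and the intervals of most genes include 0.

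Of 18 markers of liver cells other than hepatocytes and of adipocytes, 12 were tested. EdgeR and DESeq2 each called 0 of them for the KO effect in males and in females, where edgeR called 0.211% and 0.0892% of all genes tested. In edgeR 1 had an unadjusted p under 0.05 in males and 0 in females, beside 10.6% and 4.87% of all genes tested. The summed level of the 4 Kupffer cell markers was 63.0 to 128 CPM in mWT and 62.3 to 170 CPM in mKO mice, and that of the 3 endothelial markers 71.0 to 88.5 and 72.9 to 90.3 CPM. Lrat, a stellate cell marker, had the male p under 0.05, at a log2 fold change of -0.44 (adjusted p = 0.378 in edgeR). In females, 10 of the 12 log2 fold changes were negative, among them those of all 4 Kupffer cell markers, with a median of -0.33 and sums of 114 to 211 CPM in fWT and 96.2 to 167 CPM in fKO mice. Of the hepatocyte markers, Ttr, which encodes transthyretin, had a male log2 fold change of 0.30 (unadjusted p = 0.00427, adjusted p = 0.212), Apoa1 one of 0.07, Alb one of 0.09 and Cps1, the carbamoyl phosphate synthetase of the urea cycle, one of -0.04. The part of these markers in the male and female values above was not tested.

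Between fWT and mWT mice, 17.3% of all genes tested were called by edgeR at an adjusted p under 0.05. Of the 4 members tested besides Glo1, 1 was called. Btbd9 was higher in fWT than in mWT mice, with every fWT value above every mWT value, and the log2 difference was 0.22 (standard error 0.0642, edgeR adjusted p = 0.0164). Over all genes tested, 8.81% were called as higher in fWT and 4.05% had no overlap in this direction. Hagh, Park7 and Glod4 had log2 fold changes of 0.01, -0.03 and -0.13 with adjusted p-values of 0.958, 0.858 and 0.172. In the 1 Mb window, Tff3 was called as lower in fWT mice and Btbd9 as higher, and the median of the 15 genes was -0.07.

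Of the 32 list genes, 9 were called between fWT and mWT mice by edgeR and 10 by DESeq2. Over all 12330 genes tested, edgeR called 17.3% and DESeq2 2390 genes. By edgeR, 8.51% were called as lower in fWT and 8.81% as higher, while 3.66% and 4.05% had no overlap in these directions. EdgeR called Hpd and Akr1b7 as higher in fWT, and Lactb2, Gsr, Akr1a1, Aldh1a1, Ldhd, Gpd1 and Gapdh as lower. Ldhd had 171 to 199.9 CPM in mWT and 107 to 141 CPM in fWT mice, with no overlap and a log2 fold change of -0.57 (adjusted p = 8.44e-06). Aldh1a1 and Lactb2 were also lower in every fWT than in every mWT mouse, with log2 fold changes of -0.66 (adjusted p = 0.00151) and -0.47 (adjusted p = 0.00014). Akr1b7 had 0.122 to 0.404 CPM in mWT and 0.756 to 2.59 CPM in fWT mice, without overlap, from at most 8 counts per mWT library. Gpd1 was at -0.56, Gapdh at -0.29, Gsr at -0.28, Akr1a1 at -0.25 and Hpd at 0.43, with adjusted p-values of 0.00577, 0.0294, 0.0238, 0.00699 and 0.00425 and overlapping groups.

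Of the 12 tested markers of other cells, edgeR called 6 as higher in fWT than in mWT mice and 0 as lower. Over all genes tested, 8.81% were called as higher and 8.51% as lower. Of the Kupffer cell markers, Clec4f, Vsig4 and Cd5l were called as higher in fWT mice, which is 3 of 4, with the 4 markers summing to 114 to 211 CPM in fWT and 63.0 to 128 CPM in mWT mice. Of the endothelial markers 2 of 3 and of the stellate cell markers 1 of 3 were called as higher, with sums of 86.3 to 111 CPM and 225 to 296 CPM in fWT against 71.0 to 88.5 CPM and 149 to 276 CPM in mWT mice. The part of these cells in the sex differences of Btbd9 and the list genes was not tested.

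The genes whose expression was most like that of Glo1 were ranked by Pearson's r of log2 CPM over 24 mice among 12329 genes. With the mean of each group subtracted, the highest were C2cd2 (r = 0.838), the sialyltransferase St6galnac3 (0.827), Mrnip (0.826), Gclc (0.813) and the alcohol dehydrogenase Adh4 (0.800), beside a 99th percentile of 0.615 over all genes. Without this subtraction, the highest were Adh4 (0.910), Gclc (0.893), the leucine aminopeptidase Lap3 (0.886), the proteasome subunit Psmd11 (0.885) and Fam149a (0.872), beside a 99th percentile of 0.732. Adh4 and Gclc were in both rankings, and St6galnac3 was weakly expressed, at 4 to 36 counts per library. The other members were in neither set of 5. With group means subtracted, r with Glo1 was 0.02 for Btbd9, -0.19 for Hagh, 0.03 for Glod4 and -0.01 for Park7. Without subtraction it was -0.27, 0.25, 0.26 and 0.60, the last at rank 553. All values share libraries and depth, and the correlations are given as a description.

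The mKO mice stand apart in Glo1, so the likeness was also taken without them and within groups. Gclc and Adh4 were chosen by their r over these same mice, so high values in parts of them follow in part from that choice. The r of all other genes was not taken for these subsets. Over the 18 other mice, r was 0.810 for Gclc and 0.837 for Adh4. Within the single groups of 6 mice, r lay between 0.735 and 0.908 for Gclc and between 0.737 and 0.862 for Adh4. For the other genes taken with group means subtracted, it lay between 0.795 and 0.896 (C2cd2), 0.735 and 0.923 (St6galnac3) and 0.461 and 0.954 (Mrnip). For Psmd11, taken only from the ranking without subtraction, it lay between 0.047 and 0.947, a contrast that follows in part from the choice. Without mKO mice 1 and 5, which were farthest from the median Glo1 level, r was 0.840 for Gclc and 0.861 for Adh4 over 22 mice, and Spearman's rho over all 24 was 0.860 and 0.930. Adh4 had 99.1 to 156 CPM in mWT (median 135), 143 to 223 CPM in mKO (median 179), 89.98 to 130.3 CPM in fWT (median 96.3) and 88.0 to 146 CPM in fKO mice (median 129). The highest mice for Glo1, mKO 1 and 5, were also the highest for both Gclc and Adh4. The start region of Adh4 held 1 CCAAT box and 0 matches to the antioxidant response element core.

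**Figure D4:**
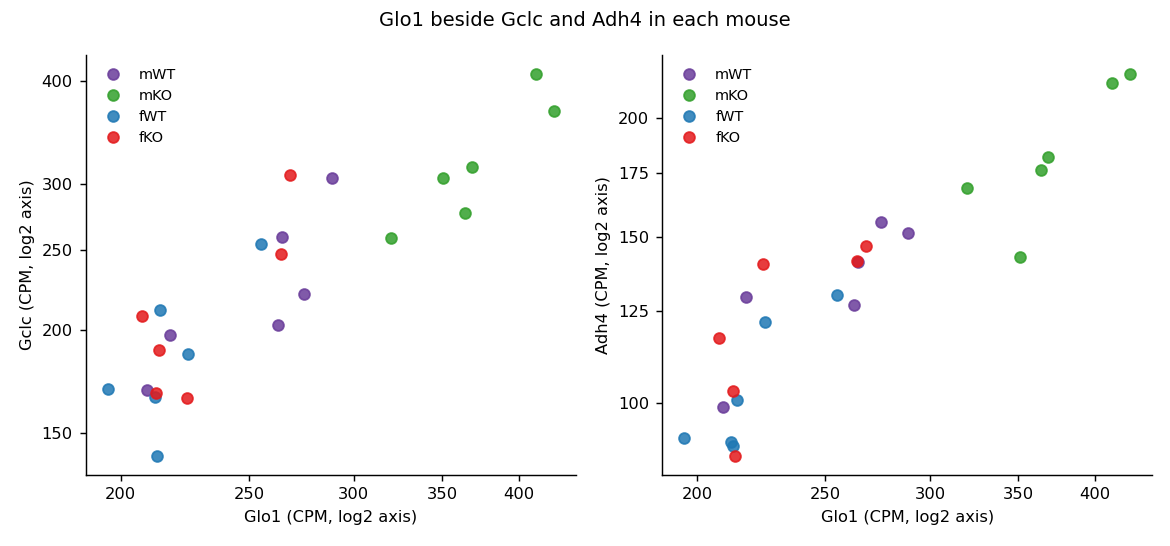
CPM of Gclc (left) and Adh4 (right) against CPM of Glo1 in each of the 24 mice, on log2 axes, coloured by group. The mKO mice lie at the upper right, and r among the 18 other mice was 0.810 and 0.837. Both genes were chosen by their r with Glo1 over these same 24 mice.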

How the data were processed

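RNA of 24 livers was sequenced from stranded mRNA libraries, and per the labels reads were processed with bcl2fastq 2.19, fastp 0.20 and STAR 2.7a against GRCm38.p6 and counted with featureCounts. The authors deposited whole-number counts by Ensembl gene, neither normalized nor filtered by expression, since 7064 listed genes had no count in any library. The list did not cover every annotated gene. In the window around Glo1, 73 genes are annotated and 33 are listed. The overlapping transcripts annotated as pseudogene or antisense had no entry. AC165962.3, annotated as another type, lies on the strand opposite Glo1 and shares 418 bp of its exons. It is listed, with 2 counts over all libraries. The annotation release, strand setting and treatment of reads with several matches are not given in the sources used here. Of 25746 genes listed, 25712 were matched to GENCODE M21. Every row named a gene.

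Counts were fitted in R 4.3.3 with edgeR 4.0.16 (quasi-likelihood test, TMM scaling, robust, a mean per group, all 24 libraries), after applying the study's filter (0.66 CPM or more in 6 or more libraries). P-values were adjusted over all 12330 genes tested, and an adjusted p under 0.05 was a call. The paper reports more expressed genes than these 12330, so counts at its cut-off here and there are over different sets of genes. Alternatives were DESeq2 1.42.0, its size factors, other filters, the deviances of edgeR 4, removal of the Mup genes, the mouse number as a block and each mouse left out. Each library is a separate mouse, and replicates differed beyond sampling noise (lowest chi-square per gene 8.07). A shared mouse number does not mean a shared animal, and the numbers did not pair the mice.

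The members and lists were chosen with earlier results of these data known. Genes named are all members, list genes with an adjusted p under 0.05 or unadjusted p under 0.01, the highest and lowest of each list and the 5 most like Glo1 in each ranking. Others were named after their values were seen (Zfand3, Ethe1, Gclm and the window extremes). Start regions came from RefSeq, where 5 of the 6 members (Glo1, Dnah8, Hagh, Glod4, Park7), and Adh4, had an entry. Similar transcripts were searched with blastn 2.17.0.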

Additional observations from a re-analysis of the deposited data

Results flagged for a closer look

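Park7 in mWT mouse 3 was measured at 89.8 CPM and lay apart from the other 5 mWT mice, with a gap to its nearest neighbour of 0.778 of the group's range of 89.8 to 109 CPM, above the critical value of 0.625 of Dixon's test. It was the only 1 of 24 groups of 6 mice that stood out in this way over the 6 genes, and chance gives about 1 in 20. Without this mouse, the male log2 fold change of Park7 was 0.18 (adjusted p = 0.442 from edgeR), beside 0.21 with it.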

How the results depend on the processing

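The log2 fold change of Glo1 kept its sign in all 4 comparisons under every alternative and every mouse left out, and moved by less than the spread between mice. In males this follows in part from the choice of Glo1 by its values in these libraries. In females the value was smaller than its standard error, so its sign is not determined by these data. Among the other members no call changed, and Btbd9 was called between fWT and mWT mice throughout (adjusted p from 0.0137 to 0.0451). The values whose sign turned were near 0. Glod4 in males was at 0.0018 with DESeq2, 0.0015 with its size factors or filterByExpr and 0.0023 without a filter, and at -0.038 to 0.033 with a mouse left out. Leaving out a mouse gave -0.042 to 0.078 for Hagh and -0.064 to 0.0055 for Park7 between WT sexes.

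The count of genes called depended on the setting. In males it was 26, with 142 by DESeq2 and 2 after removal of the Mup genes (1288 at an unadjusted p under 0.05), and 19 to 59 with a mouse left out, where mWT mice 1 (59) and 2 (40) moved it by over 1.5 times. In females it was 11, with 18 by DESeq2, 0 in edgeR after removal of the Mup genes (598 at an unadjusted p under 0.05), and 8 to 12 with a mouse left out. For the difference of the male and female effects it was 1, with 10 by DESeq2. The medians of the gene lists, recomputed after seeing the data, moved by less than the spread between mice except for the glyoxalase 2 fold in females, at -0.022 (without fKO mouse 2) to 0.19 with a mouse left out. Several are near 0, and the female sign also turned for the 1 Mb window and for the other routes.

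With the mouse number as a replicate block, counts were 24 in males, 11 in females, 1 for their difference and 2062 for WT sexes, and no call of a member changed. The same-numbered mice did not deviate together (r from -0.119 to 0.143 in males and -0.323 to 0.155 in females). Depth limits Dnah8, Tff3, Akr1b7 and St6galnac3, and intervals cover the spread between these mice only.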
